A study of Mus musculus with 25 samples.

Results

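The 10 genes described here encode the core of the NF-κB system, namely 4 subunits of the transcription factor (Nfkb1, Nfkb2, Rela and Relb), 2 inhibitors of the IκB family (Nfkbia and Nfkbib), the 3 parts of the IκB kinase complex (Chuk, Ikbkb and Ikbkg) and the feedback enzyme Tnfaip3, known as A20. They were taken as the named parts of the pathway and not by a cut on measured values, though with earlier results of these data known, and 9 of the 10 had a row among the 8829 genes measured. Tnfaip3, a ubiquitin-editing enzyme that ends the response to tumour necrosis factor, has no row in the table used here, so no value is given for it. Messenger RNA was measured in the gastrocnemius, a calf muscle of mainly fast fibres, of 25 male SAMP8 mice, an inbred line with accelerated senescence, with 1 library per mouse. Of these, 11 mice received the vehicle, corn oil (Control), and 14 received the plant phenol thymol at 20 mg per kg on each day of dosing (Thymol), in both cases by gavage, with days without a dose in each week, from 8 months of age and for 3 months. The comparison asks whether long thymol treatment went with another level of NF-κB transcripts in the muscle of these mice. No strain without accelerated senescence was part of it, and each mouse is named by its group and the number at the end of its label.

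NF-κB is a family of dimeric transcription factors that wait in the cytoplasm bound to IκB proteins. Signals from cytokine and pattern-recognition receptors activate the IκB kinase complex, which marks IκB for degradation and frees the dimers to enter the nucleus, where they switch on inflammatory and survival genes, Nfkbia and Tnfaip3 among them, whose products then shut the signal down. In skeletal muscle, sustained activity of the pathway is known from wasting and from ageing. Since dimers are freed by protein degradation and not by new transcription, messenger RNA levels measure the supply of the parts and not their activity.

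The promoters of Nfkb2, at its first and second start, and of Nfkbia are printed because NF-κB is known to act on both genes. They come from RefSeq on GRCm38.p6 and run 5′ to 3′ on the gene's own strand, from 250 bases before the start site to 50 bases after it. Capitals mark matches to the consensus κB site, searched on both strands.
Nfkb2, first start, chr19:46304487-46304786, plus strand: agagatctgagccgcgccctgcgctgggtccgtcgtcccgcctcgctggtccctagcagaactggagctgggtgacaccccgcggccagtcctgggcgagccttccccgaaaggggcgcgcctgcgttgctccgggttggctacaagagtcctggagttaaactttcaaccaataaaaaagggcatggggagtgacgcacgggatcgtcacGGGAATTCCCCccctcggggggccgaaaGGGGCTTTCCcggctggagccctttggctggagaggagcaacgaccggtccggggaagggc
Nfkb2, second start, chr19:46305445-46305744, plus strand: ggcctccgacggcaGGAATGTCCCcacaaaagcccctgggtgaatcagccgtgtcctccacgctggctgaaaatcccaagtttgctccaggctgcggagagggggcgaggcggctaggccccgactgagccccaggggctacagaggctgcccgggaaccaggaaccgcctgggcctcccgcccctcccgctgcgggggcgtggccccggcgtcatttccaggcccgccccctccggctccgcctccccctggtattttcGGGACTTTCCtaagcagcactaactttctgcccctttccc
Nfkbia, chr12:55492598-55492897, minus strand: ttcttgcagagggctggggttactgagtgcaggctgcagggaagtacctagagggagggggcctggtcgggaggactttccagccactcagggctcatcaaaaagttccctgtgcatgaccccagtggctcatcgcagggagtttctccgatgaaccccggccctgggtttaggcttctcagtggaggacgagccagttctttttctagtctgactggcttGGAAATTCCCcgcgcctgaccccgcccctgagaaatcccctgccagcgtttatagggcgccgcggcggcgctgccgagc
In the first Nfkb2 promoter GGGAATTCCC began at position -39 from the start site, overlapped by a match 1 base on, and GGGGCTTTCC began at position -11. The second Nfkb2 promoter held GGGACTTTCC from position 11 and another match from position -236. The Nfkbia promoter held GGAAATTCCC from position -29. A RefSeq promoter was found for 7 of the 10 genes, and 3 of those, Nfkb2, Nfkbia and Tnfaip3, held a match (42.9%), while Rela, Nfkbib, Chuk and Ikbkg held none. Among all genes with a promoter, 2581 of 27025 (9.55%) held one. Among those of the expression table, which lacks Tnfaip3, it was 850 of 7049 (12.1%). A match is a string of letters and not a measured binding site. Nfkb1, Relb and Ikbkb had no promoter entry.

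QuantSeq counts 1 fragment from the 3′ end of each messenger RNA, so CPM values (reads scaled to a common library size) need no division by transcript length before genes are compared. All levels below are log2 CPM as deposited, and a difference of 1 on this scale is a doubling. Reads on the genes of the table, recovered from the deposited values, ran from 4463818 to 9463418 per mouse, with group medians of 7554333 in Control and 7479077 in Thymol. All 10 muscle fibre markers were measured, with a mean of 13.65 ± 0.06 in Control and 13.67 ± 0.07 in Thymol (SD, log2 CPM), and none of the 9 T and B cell markers had a row. In whole muscle, fewer cells of a type and less RNA per cell cannot be told apart.

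Nfkbia was by far the most abundant of the 9 transcripts and Chuk the scarcest, with both inhibitors above every subunit and kinase on average. Over all 25 mice the order of mean levels was Nfkbia, Nfkbib, Ikbkb, Rela, Nfkb2, Nfkb1, Ikbkg, Relb and Chuk. Nfkbia stood above 89.1% of the genes of the table and Chuk above 13.4%, with Ikbkb near the middle at 50.2%. Nfkbia exceeded Nfkbib in 25 of 25 mice, by 1.29 ± 0.35 (SD) on the log2 scale, and Nfkbib exceeded Ikbkb in 25 of 25 mice, by 1.15 ± 0.30. Neighbours further down were not all separated beyond the spread between mice. Ikbkb exceeded Rela in 17 of 25 mice, Nfkb2 exceeded Nfkb1 in 12 of 25, and Ikbkg exceeded Relb in 8 of 25, with 1 tie. Nfkb1 exceeded Ikbkg in 21 of 25 mice, by 0.36 ± 0.37 (SD), a mean difference no larger than its spread. Rela over Nfkb2 (0.63 ± 0.47) and Relb over Chuk (0.39 ± 0.38) had mean differences above their SD, by little in the second case.

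**Figure D1:**
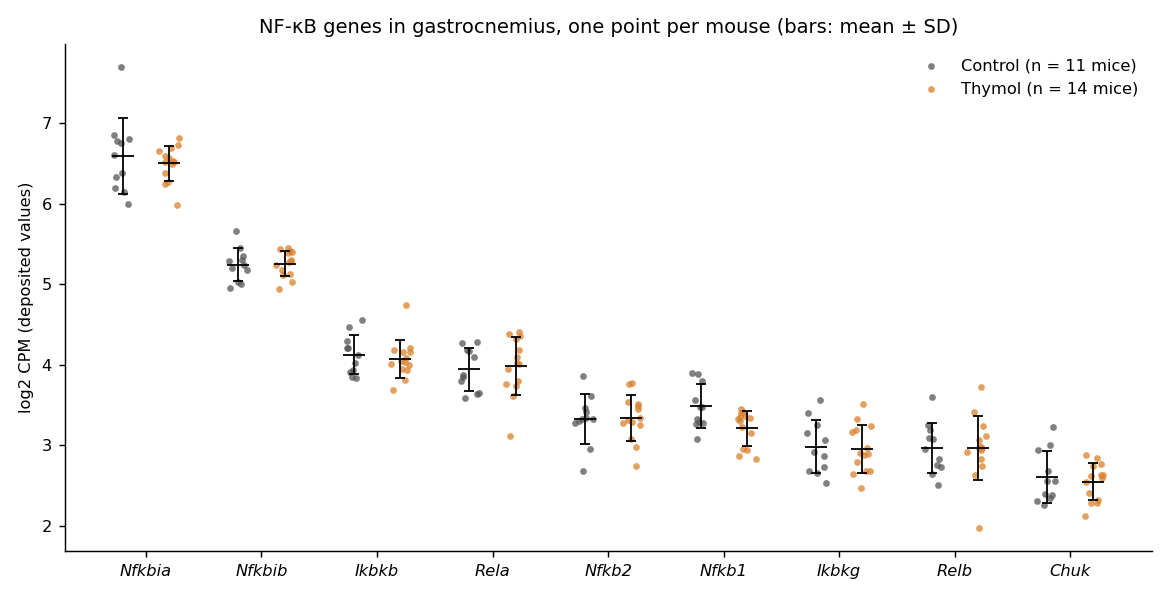
Level of the 9 measured NF-κB genes (horizontal axis, in order of mean level) as log2 CPM (vertical axis) in 11 Control and 14 Thymol mice, 1 point per mouse, with bars for the mean and SD of each group. The groups overlap for every gene, Nfkb1 sits lower in Thymol (mean 3.21 against 3.49), and 1 Control mouse stands far above the rest for Nfkbia at 7.70.

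Of the subunits, Nfkb1 was lower in the thymol-treated mice before correction for the number of genes, and the other 3 had almost the same mean in both groups. Nfkb1 encodes p105, which is processed to the p50 subunit and in its long form also holds dimers back like an IκB (chr3:135584655-135691547 on GRCm38, as are all gene positions here). Its level ran from 3.08 to 3.90 in Control, with a median of 3.48, and from 2.83 to 3.45 in Thymol, with a median of 3.32. All 14 Thymol mice lay below the Control median, 4 of them below every Control mouse, and 6 of the 11 Control mice lay above every Thymol mouse, although the ranges overlapped. The difference was -0.28 on the log2 scale (standard error 0.11, 95% interval -0.49 to -0.06), a level 0.826 times that of Control, with p = 0.0144 before and 0.9999 after Benjamini-Hochberg adjustment over 8829 genes (limma). This is the 82nd smallest p of the table. Nfkb1 was read from 46 to 119 reads per mouse, which alone would give an SD near 0.17, against observed SDs of 0.28 in Control and 0.22 in Thymol. Leaving out each mouse in turn gave differences from -0.32 to -0.23 and p from 0.00569 to 0.0352 before adjustment (limma), the weakest without Control 31, the mouse with the highest Nfkb1.

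Rela, the p65 subunit that carries the activating domain of the classical dimer (chr19:5637483-5648130), ran from 3.59 to 4.28 in Control (median 3.87) and from 3.12 to 4.41 in Thymol (median 4.02). The Thymol range enclosed the Control range, with 4 Thymol mice above and 1 below all Control mice. The difference was 0.04 (95% interval -0.21 to 0.30). Nfkb2, the precursor of the p52 subunit of the non-classical pathway (chr19:46304320-46312385), ran from 2.69 to 3.86 in Control (median 3.33) and from 2.74 to 3.77 in Thymol (median 3.32). Its difference was 0.02 (interval -0.23 to 0.26), and 7 Thymol mice lay on each side of the Control median. The 3′ end of Nfkb2 shares 299 exon bases with Psd on the opposite strand, and Psd has no row of its own. Relb, the partner of p52 (chr7:19606217-19629438), varied most among the subunits, from 2.51 to 3.60 in Control (median 2.95) and from 1.98 to 3.72 in Thymol (median 2.96), so that Thymol 11 and Thymol 16 marked the lowest and highest level of all 25 mice. Its mean was the same in both groups within 0.01 (difference 0.00, interval -0.30 to 0.30). These intervals leave room for changes of up to about 0.3 on the log2 scale in either direction.

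Within each mouse, Nfkb1 was also set against Rela and against Nfkb2. The log2 level of Nfkb1 minus that of Rela averaged -0.46 ± 0.28 (SD) in Control and -0.78 ± 0.38 in Thymol, a difference of -0.32 (standard error 0.13), with 11 of 14 Thymol mice below and 3 above the Control median. Nfkb2 minus Nfkb1 averaged -0.16 ± 0.36 in Control and 0.13 ± 0.27 in Thymol, a difference of 0.29 (standard error 0.13). Put in words, Nfkb1 was the more abundant of the 2 precursor transcripts in Control on average and Nfkb2 in Thymol. Both contrasts contain the difference of Nfkb1 itself and are given as a description.

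The inhibitors showed no difference past the test between the groups. Nfkbia encodes IκBα, the inhibitor that is degraded first and remade fastest (chr12:55489410-55492647), and ran from 6.001 to 7.70 in Control (median 6.61) and from 5.99 to 6.82 in Thymol (median 6.53). Control 19 stood alone at 7.70 (1597 reads), against 6.86 as the highest of the other Control mice and 6.82 in Thymol. It set the Control SD at 0.47, against 0.22 in Thymol. Without Control 19 the Control SD was 0.31. The difference was -0.09 (interval -0.36 to 0.17) with all mice and 0.02 without Control 19. Nfkbib, which encodes the slower inhibitor IκBβ (chr7:28758251-28767512), was the steadiest of the 9 genes and ran from 4.95 to 5.66 in Control (median 5.25) and from 4.95 to 5.45 in Thymol (median 5.29). Its difference was 0.02, with the narrowest interval of the 9 genes (-0.14 to 0.17). Its 3′ end shares 314 exon bases with Ccer2 on the opposite strand, which has no row of its own, and whether reads were assigned by strand is not given in the sources used here. Nfkbib minus Nfkbia within a mouse averaged -1.35 ± 0.41 in Control and -1.24 ± 0.30 in Thymol, and Nfkbia minus Rela averaged 2.65 ± 0.50 and 2.52 ± 0.38. Neither difference, 0.11 (standard error 0.15) and -0.13 (standard error 0.18), exceeded its error.

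The kinase genes did not separate the groups either. Ikbkb encodes IKKβ, the kinase that phosphorylates IκBα (chr8:22659212-22706589), and ran from 3.83 to 4.55 in Control (median 4.12) and from 3.69 to 4.74 in Thymol (median 4.04), with the highest level in Thymol 28. Chuk encodes IKKα, the kinase of the non-classical pathway (chr19:44073335-44107480), and ran from 2.26 to 3.23 in Control (median 2.55) and from 2.12 to 2.89 in Thymol (median 2.61). Ikbkg encodes NEMO, the scaffold that ties the kinases to upstream signals (chrX:74393290-74453854), and ran from 2.54 to 3.57 in Control (median 2.92) and from 2.47 to 3.51 in Thymol (median 2.90). The groups overlapped for all 3 genes, most for Ikbkg and Ikbkb, while 3 of the 11 Control mice lay above every Thymol mouse for Chuk. The differences were -0.05 (interval -0.26 to 0.15) for Ikbkb, -0.06 (interval -0.31 to 0.20) for Chuk and -0.03 (interval -0.30 to 0.23) for Ikbkg. Chuk was read from as few as 22 reads in a mouse, and counting alone would give an SD near 0.23, against 0.32 in Control and 0.23 in Thymol. The balance of the 2 kinases was close to the same in both groups, with Chuk minus Ikbkb at -1.52 ± 0.44 in Control and -1.52 ± 0.34 in Thymol.

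**Figure D2:**
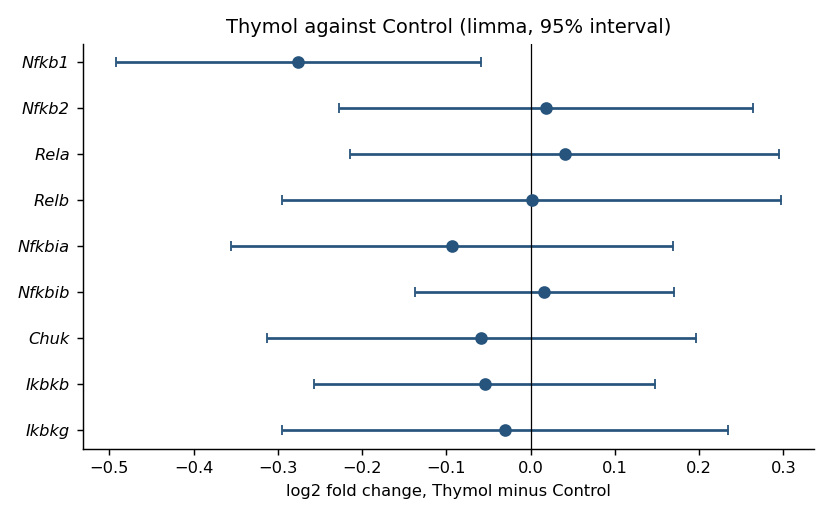
Difference in log2 level, Thymol minus Control (horizontal axis), of the 9 measured NF-κB genes, grouped by role from top to bottom, with points for the limma estimate and bars for its 95% interval. Only the interval of Nfkb1 (-0.49 to -0.06) leaves out 0 before correction for the number of genes.

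In all, 1 of the 9 genes, Nfkb1, passed p under 0.05 before adjustment (limma), where 312 of the 8829 genes did so (3.53%) and 150 did so in the lower direction (1.7%). After adjustment no gene of the table passed (0%), with a smallest adjusted p of 0.741. The median difference was -0.03 over the 9 genes and 0.00 over all genes. The median size of the difference, regardless of sign, was 0.04 over the 9 genes and 0.07 over all genes.

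The rest of the pathway was described from lists of its ligands, receptors, adaptors, kinases, inhibitors and targets, of which 59 of 114 genes had a row. Over all 8829 genes, 4454 had a lower and 4375 a higher mean in Thymol, and 3.53% passed p under 0.05 before adjustment (limma). Of the 59 list genes, 36 had a lower and 23 a higher mean, 1 passed, and the median difference was -0.01. That 1 gene was Sharpin, a part of the linear ubiquitin ligase that assembles chains on NEMO, at 4.44 in Control and 4.22 in Thymol (difference -0.22, standard error 0.10, p = 0.0340 before adjustment, limma). Rbck1, the other measured member of the same ligase and named after its value was seen, had p = 0.997 (limma). Most cytokines that start the response had no row, and only Il33 and Tnfsf12 of 10 ligands were measured, at differences of -0.03 and 0.10. Among 4 receptors the smallest p was that of Il1r1, the interleukin 1 receptor, at 2.56 in Control and 2.90 in Thymol (difference 0.34, p = 0.0599, limma), and the smallest in the lower direction that of Tnfrsf1b, a receptor of tumour necrosis factor (-0.30, p = 0.170).

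The list of kinases upstream of or related to IKK held 6 measured genes, with the TAK1 partners Tab1 and Tab2 among them. Map3k7, which encodes TAK1, differed by 0.12 (p = 0.0893, limma) and Tbk1, an IKK-related kinase, by -0.24 (p = 0.101, limma). Of the other Rel and IκB family genes only Rel and Nfkbil1 of 6 were measured, at -0.06 and 0.05. Among 14 further negative regulators none passed. Nkiras2, a small GTPase that binds IκB proteins, had the smallest p in the lower direction (-0.21, p = 0.136, limma), and Cyld, a deubiquitinase that opposes NEMO ubiquitination, the smallest in the higher (0.09, p = 0.257). Of 18 measured target genes, 11 had a lower and 7 a higher mean, beside 4454 and 4375 of all 8829 genes, and none passed. Csf1, the macrophage growth factor, came closest at 3.31 in Control and 2.94 in Thymol (difference -0.37, p = 0.0513, limma), and Fth1, the ferritin heavy chain, was the nearest in the higher direction (0.05, p = 0.274). Icam1, Vcam1, Ccl2 and Il6 were on the target list and had no row.

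**Figure D3:**
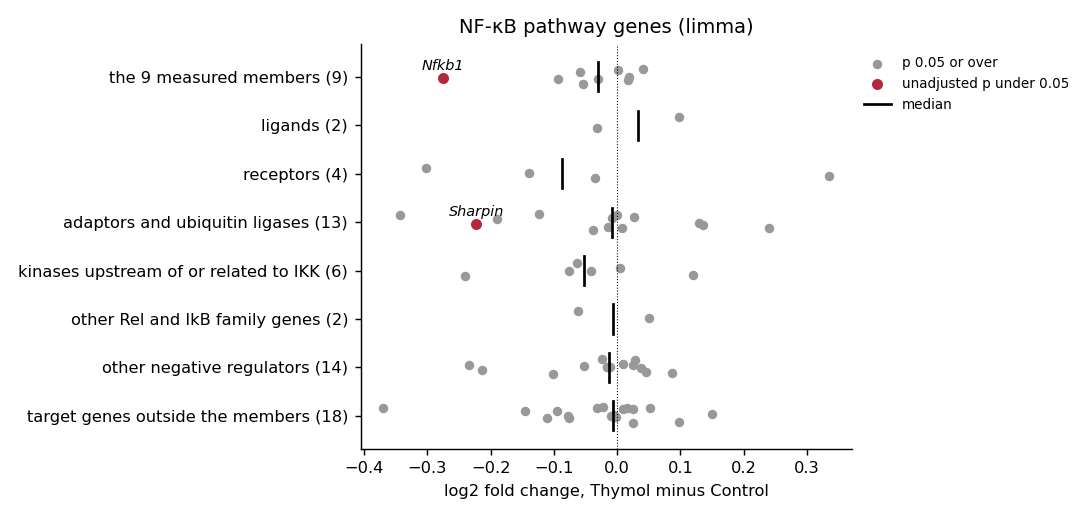
Difference in log2 level, Thymol minus Control (horizontal axis), for the 9 NF-κB genes and the measured genes of 7 pathway lists (vertical axis, number of genes in parentheses), 1 point per gene, with a line for the median of each list. Nfkb1 and Sharpin have unadjusted p under 0.05 (limma, 25 mice), and the medians lie close to 0.

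Markers of other cells and states were read beside Nfkb1. In Thymol 11 of 12 immediate-early genes had a lower mean (list mean 4.03 in Control and 3.80 in Thymol, log2 CPM), as did 7 of 7 slow fibre genes, 7 of 8 fibroblast genes and 8 of 10 endothelial genes. The same held for 5 of 11 leukocyte and macrophage, 3 of 6 adipocyte and 3 of 10 muscle fibre genes, and for 4454 of all 8829 genes. The slow fibre list mean was 8.09 ± 0.93 (SD) in Control and 7.82 ± 1.89 in Thymol. It was 6.22 ± 0.56 and 6.11 ± 0.42 for the fibroblast list and 4.44 ± 0.176 and 4.35 ± 0.165 for the endothelial list. These counts and means of lists were not tested. The 1 marker gene with p under 0.05 before adjustment was Tie1, an endothelial receptor kinase named after its value was seen, at 3.97 in Control and 3.70 in Thymol (difference -0.27, p = 0.0194, limma). The part of these list differences in the level of Nfkb1 was not tested beyond the values that follow. Between mice, with group means removed, Nfkb1 had Pearson r of 0.02 for the immediate-early, 0.09 for the slow fibre, 0.14 for the fibroblast and 0.11 for the endothelial list. For the slow fibre list r was -0.48 within Control and 0.36 within Thymol, a difference that was not tested. For the endothelial list r was 0.40 without Control 27 and Thymol 22. With the immediate-early mean as a covariate the difference of Nfkb1 was -0.27 (p = 0.0267, limma), and with the leukocyte mean -0.28 (p = 0.0158, limma). The leukocyte mean was nearly the same in both groups (3.90 in Control and 3.89 in Thymol), so that fit could change little. The slow fibre, fibroblast and endothelial means were not used as covariates.

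The 9 genes did not rise and fall together between mice. After the group means were removed, 18 of their 36 pairs had a positive and 18 a negative Pearson r over 25 mice, with a mean of 0.01. At r of 0.3 or more stood 4 pairs and at -0.3 or less another 4, where 9.48% and 9.36% of all gene pairs of the table did so. In the fit of each gene against all other genes (limma), no pair of the 9 passed an adjusted p under 0.05. Before adjustment, the number of the 8 other genes that passed was 1 for Nfkb1 (4.5% of all genes), 0 for Nfkb2 (3.86%), 0 for Rela (5.41%), 1 for Relb (5.98%), 2 for Nfkbia (9.23%), 0 for Nfkbib (6.98%), 0 for Chuk (4.11%), 1 for Ikbkb (13.8%) and 0 for Ikbkg (10.4%).

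**Figure D4:**
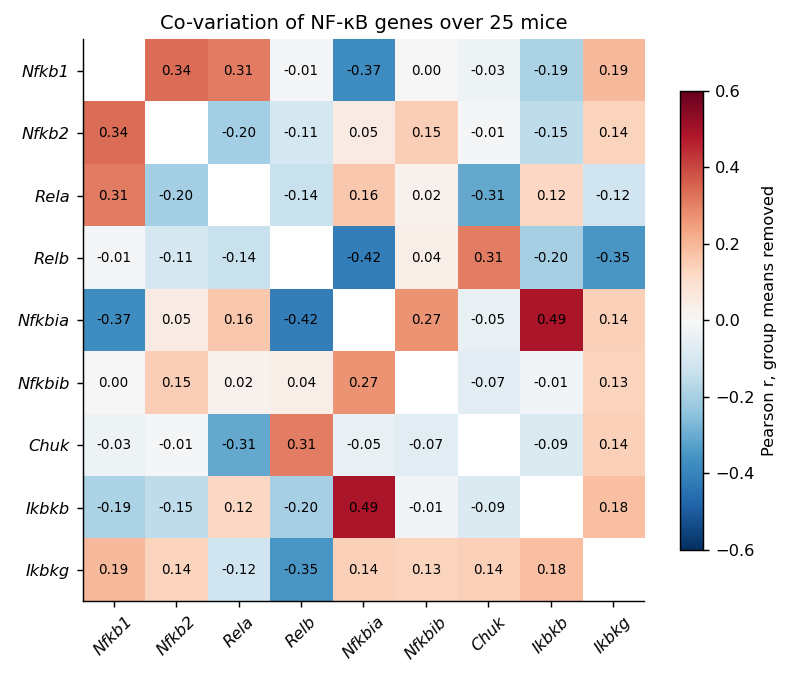
Pearson r over 25 mice, group means removed, for each pair of the 9 measured NF-κB genes, with blue for negative and red for positive values on a scale from -0.6 to 0.6. The highest r is that of Nfkbia with Ikbkb (0.49) and the lowest that of Nfkbia with Relb (-0.42).

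Nfkbia had the pairs that stood out most. It went with Ikbkb, the kinase subunit that leads to its destruction, with Pearson r = 0.49 (permutation p = 0.0163) and Spearman rho = 0.63 (permutation p = 0.00098), both p unadjusted and the smallest of the 36 pairs. The p adjusted over all genes was 0.393 in one direction of the fit and 0.177 in the other (limma). Within groups r was 0.75 in Control and 0.12 in Thymol, a difference that was not tested. Without Control 19 and Control 31, the mice farthest from the median of Nfkbia, r fell to 0.33. Nfkbia ran against Relb, with r = -0.42 (permutation p = 0.0423) and rho = -0.48 (permutation p = 0.0166), and r was -0.40 without Thymol 11 and Thymol 16. The p adjusted over all genes was 0.804 and 0.518 (limma). Both pairs passed p under 0.05 in both directions of the fit before adjustment, and neither did so with the leukocyte marker mean as a covariate. When each mouse was left out, Nfkbia and Ikbkb passed in 24 of 25 fits, all but the one without Control 19. Nfkbia and Relb passed in 17 of 25, and not without Control 14, 15, 18, 19, 27 or 35 or Thymol 11 or 16.

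The genes that moved with Nfkbia from mouse to mouse came from outside the NF-κB list. At an adjusted p under 0.05, 12 of 8828 genes (0.136%) were called with Nfkbia, 10 in the same and 2 in the opposite direction (limma). The 3 most alike by r were Cebpd, a C/EBP transcription factor of the acute phase response (r = 0.83, adjusted p = 0.000404, limma), Arrdc2, an arrestin-domain gene (r = 0.80, adjusted p = 0.000582), and Depp1, a regulator of autophagy downstream of FoxO factors (r = 0.79, adjusted p = 0.000582). The other 9 are named here after their values were seen. Glul, which encodes glutamine synthetase, Per1, a repressor of the circadian clock, Ddit4, an inhibitor of mTORC1, Foxo1, a transcription factor of the fasting response, Rhob, a small GTPase, Sult1a1, a sulfotransferase, and Plin4, a lipid droplet protein, went with Nfkbia at r from 0.70 to 0.79. Phkg1, the catalytic subunit of muscle phosphorylase kinase (r = -0.73), and Ddit4l, a relative of Ddit4 (r = -0.70), went against it. Nfkbia, Cebpd, Per1, Ddit4 and Glul are each known as genes that glucocorticoid hormones induce, which is background and was not tested here.

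Control 19 was the highest of all 25 mice for each of the 10 genes that went with Nfkbia and the lowest for the 2 that went against it, so the calls rest in part on that mouse. Cebpd ran from 2.41 to 5.44 in Control (median 3.67) and from 2.91 to 4.34 in Thymol (median 3.37), with Control 19 at 5.44. Depp1 ran from 1.78 to 6.43 in Control (median 3.45) and from 2.61 to 4.21 in Thymol (median 3.15), with Control 19 at 6.43. Without Control 19 no gene was called (smallest adjusted p 0.0739, limma). All 12 kept their direction there and had p under 0.05 before adjustment, and Arrdc2 and Cebpd ranked first and second of all genes. Without Control 19, r was 0.73 for Cebpd, 0.73 for Arrdc2, 0.59 for Depp1 and 0.68 for Per1. It was weakest for Foxo1, at 0.45 from 0.70 with all mice, Phkg1, at -0.48 from -0.73, Plin4, at 0.54 from 0.75, and Ddit4l, at -0.55 from -0.70. Within groups, r was farther from 0 in Control than in Thymol for all 12 genes. It was -0.95 in Control and -0.05 in Thymol for Phkg1, 0.935 and 0.47 for Cebpd, and 0.89 and 0.40 for Depp1. The 2 values were closer for Arrdc2 (0.82 and 0.79) and Sult1a1 (0.73 and 0.71). These differences between groups were not tested. Without Thymol 6 or Thymol 26, 25 and 20 genes were called, all 12 among them. Spearman rho, which weights a single far mouse less, was 0.77 for Cebpd and 0.79 for Arrdc2 (permutation p = 2e-05 for each). Of the 12 genes, none had p under 0.05 for Thymol against Control.

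**Figure D5:**
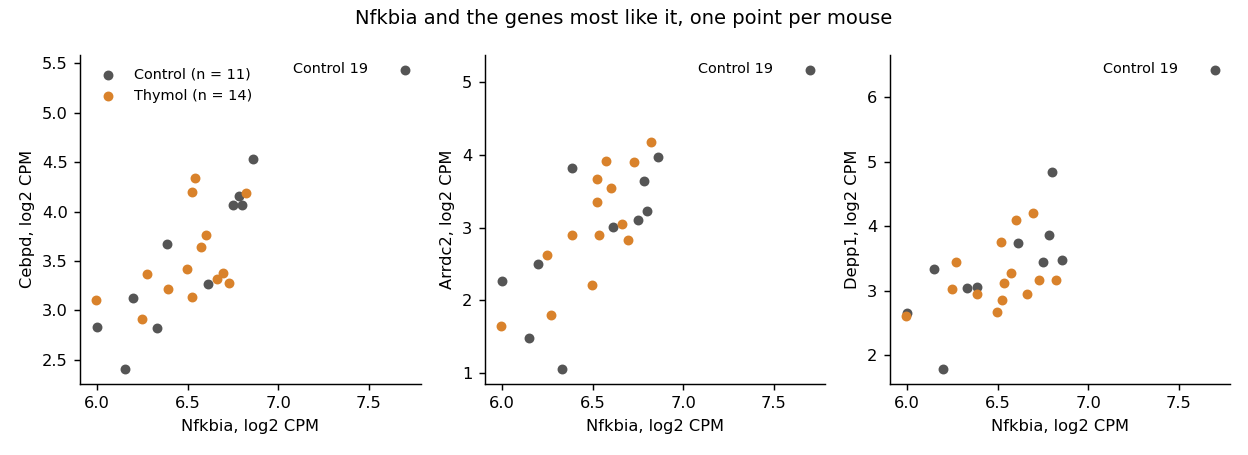
Level of Cebpd, Arrdc2 and Depp1 (vertical axes, log2 CPM) against that of Nfkbia (horizontal axis, log2 CPM) in 11 Control and 14 Thymol mice, 1 point per mouse. All 3 rise with Nfkbia over both groups, with r within Thymol of 0.47 for Cebpd, 0.79 for Arrdc2 and 0.40 for Depp1. Control 19 lies at the upper right of each panel (Nfkbia 7.70).

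Ikbkb moved with 13 genes (0.147% of 8828, adjusted p under 0.05, limma), 11 in the same direction. The most alike were Pnisr (r = 0.79), a nuclear speckle protein rich in serine and arginine, Topors (r = 0.76), a ubiquitin and SUMO ligase of the nucleus, and Rbm25 (r = 0.76), a splicing regulator, with adjusted p of 0.0149, 0.0278 and 0.0278 (limma). Esrra, a nuclear receptor that drives mitochondrial genes, went against Ikbkb most closely (r = -0.81, named after its values were seen). This count depended on which mice were in the fit, from 0 without Control 18 to 94 without Thymol 20, and it moved by over 1.5 times for 13 of the 25 mice. Those were Control 14, 18, 19, 27, 31, 32 and 35 and Thymol 3, 6, 20, 21, 28 and 34. It was 0 with the leukocyte marker mean as a covariate. Among the marker lists, Ikbkb went with the leukocyte and macrophage list at r = 0.50 (permutation p = 0.0115), which did not pass adjustment over 63 relations (adjusted p = 0.242).

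Ikbkg moved with 5 genes (0.0566% of 8828, adjusted p under 0.05, limma). With it went Iqsec2, an activator of ARF GTPases (r = 0.81), Hspb6, a small heat-shock protein of muscle (r = 0.74), and Mgp, the matrix Gla protein (r = 0.70). Against it went Actn3, the α-actinin of fast fibres (r = -0.72), and Rnf150 (r = -0.75), both named after their values were seen. Ikbkg also went with the slow fibre list at r = 0.52 (permutation p = 0.00605, adjusted p = 0.197 over 63 relations), with r of 0.55 in Control and 0.56 in Thymol. The count of 5 ran from 0 to 31 when each mouse was left out, moved by over 1.5 times for 19 of the 25 mice and was kept within that margin only without Control 19 or 32 or Thymol 16, 24, 28 or 34. It was 0 without Control 23 or 31 or Thymol 6, 11, 21 or 30, and highest without Control 18.

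No gene was called with the other 6. The genes most like Nfkb1 were Fastkd1, a mitochondrial RNA-binding protein (r = 0.69), Serp1, an endoplasmic reticulum stress protein (r = 0.68), and Rnf111, a ubiquitin ligase (r = 0.63). Those most like Nfkb2 were Gabarapl2, an ATG8 protein of autophagosomes (r = 0.64), Yod1, a deubiquitinase (r = 0.62), and Cntfr, a receptor of ciliary neurotrophic factor (r = 0.61). For Rela they were Tmem170b (r = 0.73), the ubiquitin ligase Rnf4 (r = 0.68) and the microtubule-severing enzyme Fign (r = 0.64). For Relb they were Relt, a member of the tumour necrosis factor receptor family, Smtn, a smooth muscle protein, both at r = 0.70, and the proteasome subunit Psma5 (r = 0.68).

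For Nfkbib they were H3f3b, a gene of histone H3.3 (r = 0.77), the splicing factor Sf3b6 (r = 0.68) and Eda2r, a receptor that signals to NF-κB (r = 0.66). For Chuk they were Dcaf7 (r = 0.75), Tfe3, a transcription factor of lysosomal genes (r = 0.70), and Dnmbp (r = 0.69). These are the top of 8828 values over 25 mice for each gene and are a description. Rela went with the adipocyte list at r = 0.53 (permutation p = 0.00626, adjusted p = 0.197), with r of 0.15 in Control and 0.73 in Thymol and 0.30 without Thymol 3 and Control 19. Of the 63 relations between the 9 genes and 7 marker lists none passed adjustment.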

How the data were processed

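Messenger RNA of the gastrocnemius was measured in 25 mice, grouped by the treatment in their labels. Per the labels and the study's methods, the authors aligned the QuantSeq reads to the mouse genome (GRCm38) in STAR 2.5.3 and obtained gene counts in HTSeq 0.6.1. They retained genes that reached 30 reads in 6 or more samples, normalised by TMM and deposited the result as log2 CPM. Reads were recovered from the steps between the deposited log2 values. Of all values, 100% came out whole (within 0.1 read), with 2 reads added to a library of mean size before the log. Reads were amplified by PCR, so SDs from counts cover counting error only.

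Thymol and Control were compared by a linear model in limma 3.58.1 (R 4.3.3), fitted to these values (treatment as the only term, trend, two-sided, Benjamini-Hochberg over all genes), in place of the authors' edgeR on counts. For co-variation, each gene's group-centred value was added as a term and tested over all other genes, and a pair was called when both of its fits had an adjusted p under 0.05. Correlations used group-centred values and 100000 permutations, two-sided, with 1e-05 the smallest p they can give (numpy 2.4.6, scipy 1.17.1). Adjusted permutation p are given over the 63 relations with marker lists, and all other permutation p are given unadjusted. No label says that mice shared a cage or litter. The procedures were run on simulated data in which genes were independent of each other apart from the relations put in. Those runs cannot show how often genes that vary together are called falsely. Figures were drawn with matplotlib 3.10.9, positions are from GENCODE M21 (GRCm38) and promoters from RefSeq.

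The genes, lists and tests were chosen with earlier results of these data known. Named were all members, the pathway list genes with p under 0.05 (where a list had none, its gene of smallest p on each side of 0) and, for each member, the 3 genes of highest r. A gene named outside this rule is said to be so in the text.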

Additional observations from a re-analysis of the deposited data

How the results depend on the processing

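No gene of the table passed an adjusted p under 0.05 for Thymol against Control in the limma fit or under any of 11 other settings, voom on the recovered reads included, and the number with unadjusted p under 0.05 ran from 234 to 341 there and from 287 to 348 when each mouse was left out (312 as reported). Nfkb1 was lower under all 11 (-0.29 to -0.27) and in all 25 fits without 1 mouse. With the first number of the label as a replicate block its p was 0.0682 before adjustment (limma) and the count of members fell to 0. Only 7 of these numbers occur in both groups, so that fit draws the treatment difference from fewer mice than the others. Over all genes, the mean correlation of deviations was -0.002 (from -0.18 to 0.10) over 9 pairs of a Control and a Thymol mouse that share a first number. It was 0.000 over 145 other such pairs. Mice of the same group were not compared there. A mean over all genes cannot exclude a block effect on Nfkb1, which was not tested. The other members lay near 0 and changed sign in places. Under the replicate block Rela came to -0.088, Nfkbib to -0.0044 and Ikbkg to 0.13. With the immediate-early mean as a covariate Relb came to -0.079 and Ikbkg to 0.067. Relb was -0.00048 with the leukocyte covariate and -0.044 with array weights, and Nfkb2 was -0.0073 with voom. When each mouse was left out, differences ran from -0.046 to 0.072 for Nfkb2, -0.057 to 0.077 for Relb, -0.15 to 0.017 for Nfkbia, -0.013 to 0.058 for Nfkbib, -0.093 to 0.0039 for Chuk and -0.076 to 0.027 for Ikbkg, with the positive value of Chuk without Control 1. The filter to the 75% of genes with the highest mean removed Relb, Chuk and Ikbkg.

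No pair of members was called under any setting. The 2 pairs with unadjusted p under 0.05 in both fits became 0 with the leukocyte covariate and 0 to 3 when each mouse was left out. The count of genes called with Nfkbia was 12 to 20 under 6 settings chosen after the data were seen, with 20 without the treatment term, and 0 to 25 when each mouse was left out. For Ikbkb it was 8 with median centring, 8 with library number, 3 with the immediate-early and 0 with the leukocyte covariate, and 0 to 94 when each mouse was left out. For Ikbkg it was 2, 3, 0 and 39 in the same order, and 0 to 31. The cause of these changes was not tested. Depth limits the scarcest genes most. Chuk, Relb and Ikbkg had medians of 40, 54 and 58 reads per mouse, for which counting alone gives SDs of 0.23, 0.20 and 0.20 on the log2 scale, against observed SDs of 0.27, 0.36 and 0.31.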
